A study of Mus musculus with 12 samples.

Results

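The genes examined here are 50 cell cycle and DNA replication genes: cyclins and their kinases, the Cdc25 phosphatases and Wee1, inhibitors of cyclin-dependent kinases (CDKs), E2F factors and pocket proteins, Foxm1 and Mybl2, proteins that license and open replication origins, mitosis genes and the proliferation markers Mki67 and Top2a. They were taken by symbol from a fixed list, and every probe set annotated to a single member symbol was used. Of the 50, 49 had such a probe set, 108 probe sets in all, out of 34945 probe sets and 18193 genes named in the table. Ccnb1 was not analysed here. All 49 passed the filter on dim genes, among 13811 genes that did.

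Expression was measured on Affymetrix arrays in mouse embryonic stem cells of 2 genotypes, the Tcf3 knockout (Tcf3-/-) and the wild type (Tcf3+/+). The 4 groups were Tcf3-/- cells with Wnt3a, Tcf3+/+ cells with Wnt3a, Tcf3-/- cells in control medium and Tcf3+/+ cells in control medium, with 3 arrays each. Wnt3a was recombinant and was given at 50 ng/ml for 24 h, and all groups grew on gelatin without feeder cells in medium with serum and Lif. Tcf3 is the older name of Tcf7l1, a DNA-binding protein of the Tcf/Lef family. The sources used here do not give the cell line, the number of clones, the deleted exons or whether replicates came from separate cultures. The p-values therefore rest on the spread between arrays of a group, which may be technical.

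A dividing cell passes through a gap phase (G1), DNA synthesis (S), another gap (G2) and mitosis. In G1, D-type cyclins with Cdk4 or Cdk6, and cyclin E with Cdk2, phosphorylate the pocket proteins Rb1, Rbl1 and Rbl2, which otherwise hold E2F factors in check, and freed E2Fs switch on genes for DNA synthesis. Mouse embryonic stem cells are known for a short G1, for high cyclin E and Cdk2 activity through the cycle and for low levels of most CDK inhibitors. Wnt3a is a secreted ligand that stabilises beta-catenin, and Tcf7l1 is known in these cells mainly as a repressor at genes that beta-catenin can derepress.

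Tcf7l1 itself was 9.37 to 9.58 log2 intensity on Tcf3-/- arrays and 10.77 to 10.90 on Tcf3+/+ arrays in control medium, and 8.89 to 9.22 against 10.21 to 10.50 with Wnt3a. The knockout was thus 2.60-fold lower in control medium (log2 change -1.38 ± 0.10 SE, limma adjusted p = 1.17e-06), and still lay above the filter level of 5.56. These values are of the brighter probe set of Tcf7l1. The other had means of 9.04 on Tcf3-/- and 10.80 on Tcf3+/+ arrays in control medium, and 8.52 and 10.32 with Wnt3a. Whether either probe set lies within the deleted sequence is not given, so this checks the labels only in part. All 10 embryonic stem cell markers lay above the filter level in every group, and they moved with the groups. Their summed intensity was 108200 to 113800 in Tcf3-/- cells with Wnt3a, 97410 to 104500 in Tcf3+/+ cells with Wnt3a, 104500 to 106600 in Tcf3-/- cells in control medium and 81650 to 87110 in Tcf3+/+ cells in control medium. Wnt3a raised 2 and lowered 2 of them in Tcf3-/- cells and raised 7 and lowered 2 in Tcf3+/+ cells, and the knockout raised 4 and lowered 2 with Wnt3a and raised 7 and lowered 1 in control medium. For Wnt3a these are 20% and 20% in Tcf3-/- cells, against 13.3% and 14.7% of all genes. In Tcf3+/+ cells they are 70% and 20%, against 18.9% and 22.6%. For the knockout they are 40% and 20% with Wnt3a, against 13.2% and 14.7%, and 70% and 10% in control medium, against 19.9% and 22.3%. Markers of trophectoderm moved with genotype: their summed intensity was 1471 to 1934 on Tcf3-/- arrays and 20360 to 33720 on Tcf3+/+ arrays in control medium, and 1481 to 1628 against 16000 to 19410 with Wnt3a. In control medium 5 of the 7 of them that were tested fell in the knockout (71.4%, against 22.3% of all genes) and 0 rose. With Wnt3a 5 fell (71.4%, against 14.7%) and 1 rose. Eomes went the other way, with means of 8.12 on Tcf3-/- and 7.73 on Tcf3+/+ arrays in control medium. With Wnt3a its means were 8.43 and 7.75. Krt8 and Krt18 carry most of the sum, while the defining marker Elf5 lay below the filter level in every group. The part of either list in any result below was not tested, and fewer cells of a type and less RNA per cell cannot be told apart in bulk RNA. The bacterial control transcript dap was 11.29 to 11.58 on the 6 Wnt3a arrays and 3.85 to 4.07 on the 6 control-medium arrays. The control transcripts thr, phe and lys were higher on the Wnt3a arrays too, by 4.81, 3.56 and 3.02. So were bioB, bioC, bioD and cre, by 2.61, 2.58, 2.67 and 1.71, and no control overlapped between media. Medium therefore cannot be told apart from sample preparation or hybridisation in any Wnt3a comparison. The gap between 3' and 5' actin probe sets was 0.38 in Tcf3-/- and 0.26 in Tcf3+/+ cells with Wnt3a, and 0.35 against 0.21 in control medium. The same gap for Tfrc was 1.20 in Tcf3-/- and 1.11 in Tcf3+/+ cells with Wnt3a, and 1.42 against 1.57 in control medium, so it was 0.34 lower on Wnt3a arrays. For Gapdh it was -0.10 to -0.04 on the 6 Wnt3a arrays and -0.01 to 0.04 on the 6 control-medium arrays, without overlap. The part of these gaps in the Wnt3a results was not tested. Arrays of a group correlated at 0.9923 to 0.9974 across the 13811 genes that passed the filter.

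Most members changed little, and more of them rose than fell with Wnt3a. Values are log2 intensities of the member's brightest probe set, a change is 1 group's mean less the other's, given with its standard error (SE) from a limma fit over all genes, and a gene is called where its Benjamini-Hochberg adjusted p over 13811 genes is below 0.05. The median standard deviation within groups was 0.08 over the members and 0.11 over all genes, and the median range of a member's 4 group means was 0.39 log2 units. Of the 49, 1 changed by 1 log2 unit or more in a pairwise comparison, the knockout effect on Cdk6.

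In Tcf3-/- cells, Wnt3a raised 14 of the 49 members (28.6%) and lowered 5 (10.2%), against 13.3% and 14.7% of all genes called in those directions. In Tcf3+/+ cells it raised 23 (46.9%) and lowered 5 (10.2%), against 18.9% and 22.6% of all genes. The members' median change was 0.12 in Tcf3-/- and 0.16 in Tcf3+/+ cells, against -0.01 and -0.02 over all genes. The knockout raised 15 members (30.6%) and lowered 7 (14.3%) in control medium, with 19.9% and 22.3% of all genes called. With Wnt3a present it raised 5 (10.2%) and lowered 8 (16.3%), near the 13.2% and 14.7% of all genes. The interaction, taken as the effect of Wnt3a in Tcf3-/- minus that in Tcf3+/+ cells, was called higher for 1 member and lower for 3, against 2.2% and 1.88% of all genes. The knockout effect in control medium and the Wnt3a effect in Tcf3+/+ cells use the same 3 Tcf3+/+ arrays in control medium. Low values on those arrays raise both effects and lower the interaction, so a member's rises in both are not independent results.

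The Wnt3a counts depended on how the arrays were scaled. With quantile normalization run again the calls were 6 higher and 6 lower in Tcf3-/- cells and 13 higher and 7 lower in Tcf3+/+ cells. With each array centred on its median they were 20 and 4 in Tcf3-/- cells, and 30 and 5 in Tcf3+/+ cells. With quantile normalization run again, the rises with Wnt3a that no longer passed were those of Cdk1, Orc6, Cdc20 and Mki67 in both genotypes, of Mcm4, Mcm7, Bub1b and Mad2l1 in Tcf3-/- cells, and of Gmnn, Mcm2, Mcm3, Plk1, Aurkb, Cenpa and Kif23 in Tcf3+/+ cells. All of them stayed above 0. The split over all genes moved as well. In Tcf3-/- cells it was 1840 higher and 2032 lower as deposited, 1743 and 2230 by quantile, and 2677 and 1360 by median. In Tcf3+/+ cells it was 2615 and 3118 as deposited, 2350 and 3418 by quantile, and 3503 and 2190 by median. The members' median Wnt3a change stayed above that of all genes in each: in Tcf3-/- cells it was 0.05 against -0.01 by quantile and 0.18 against 0.05 by median, and in Tcf3+/+ cells 0.06 against -0.04 and 0.23 against 0.05. Leaving out the third array of Tcf3-/- cells in control medium gave 6 higher calls in Tcf3-/- cells, and leaving out the third array of Tcf3+/+ cells in control medium gave 14 in Tcf3+/+ cells. Without the second Wnt3a array of Tcf3-/- cells 8 members were called higher there, without the third 9, and without the second control-medium array 8.

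**Figure D1:**
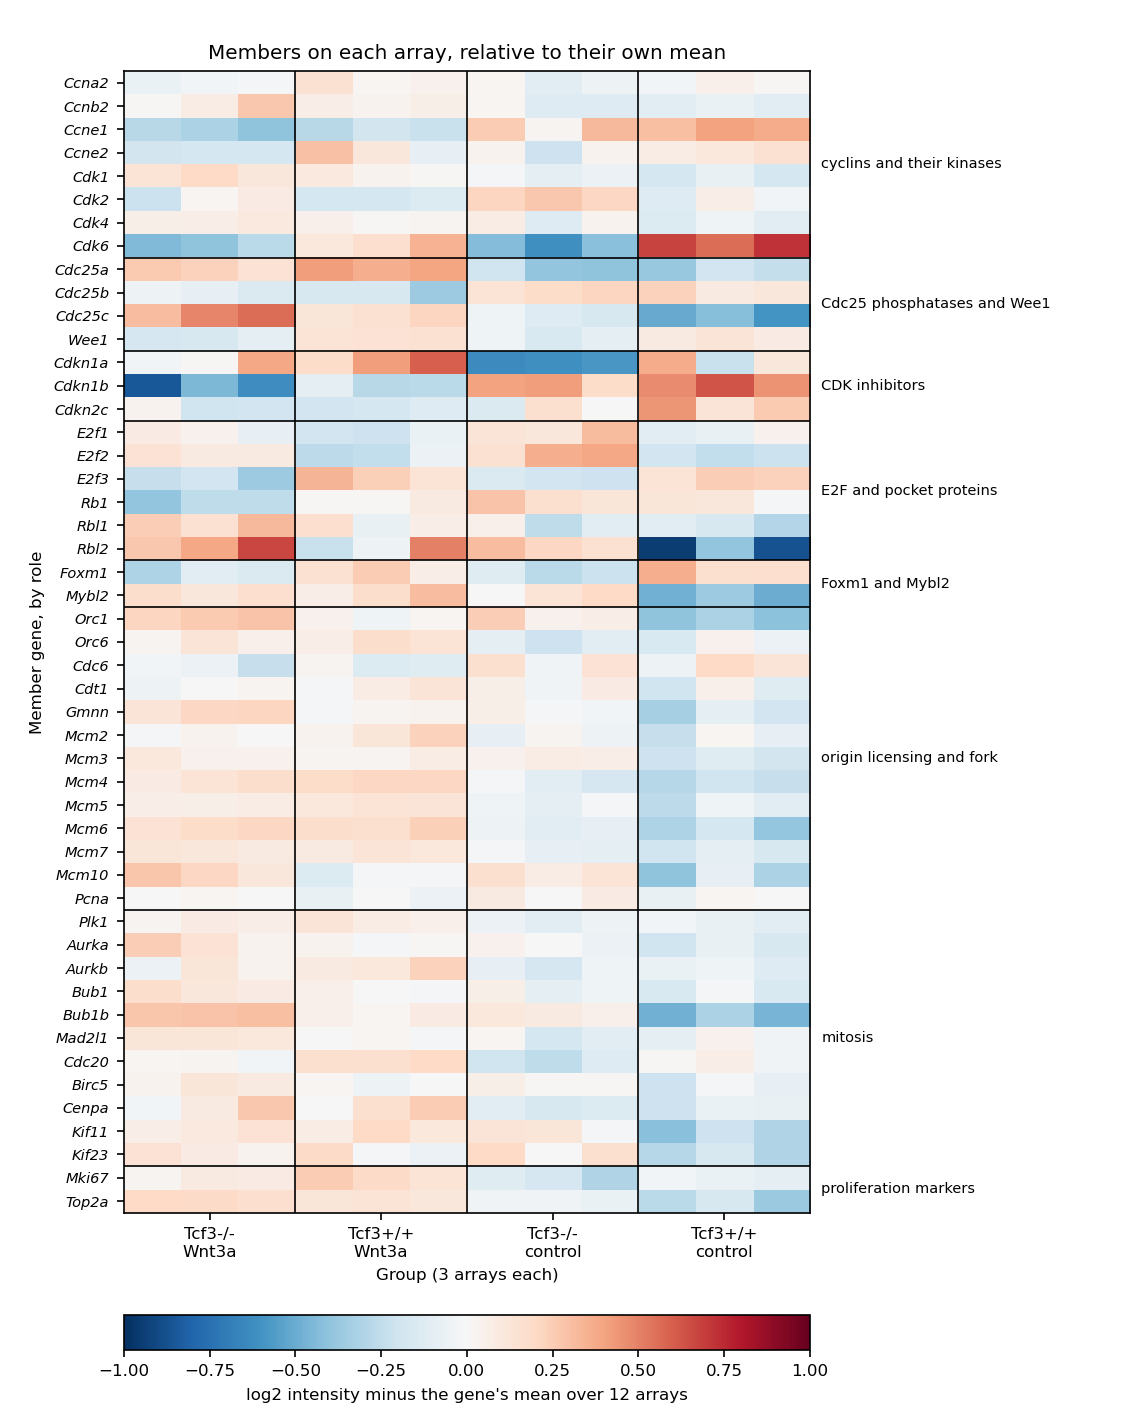
Log2 intensity of each of 49 members (rows, by role) on each of 12 arrays (columns, 3 per group), as the difference from the gene's own mean over the arrays; red is higher and blue lower. Cdk6 is lowest on the 6 Tcf3-/- arrays, and Kif11, Orc1, Mybl2 and Bub1b are lowest on the 3 Tcf3+/+ arrays in control medium.

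Promoters of 6 members are printed here because these genes carry the changes described below: Mybl2, Kif11, Bub1b and Mcm6, which Wnt3a raised in Tcf3+/+ cells, and Cdk6 and Cdkn1b, which it lowered. Each runs from 250 bases before to 50 bases after the start of the gene, 5′ to 3′ on the gene's strand, from RefSeq on GRCm38.p6. Capitals mark any match, on either strand, to the cell cycle homology region (CHR, TTTGAA), the CCAAT box (CCAAT), E2F sites (TTTGGCGC, TTTCCCGC, TTTCGCGC or TTTGCCGC) or Tcf/Lef sites (CTTTGAT or CTTTGTT).
Mybl2 (GRCm38.p6 chr2:163054385-163054684, plus strand): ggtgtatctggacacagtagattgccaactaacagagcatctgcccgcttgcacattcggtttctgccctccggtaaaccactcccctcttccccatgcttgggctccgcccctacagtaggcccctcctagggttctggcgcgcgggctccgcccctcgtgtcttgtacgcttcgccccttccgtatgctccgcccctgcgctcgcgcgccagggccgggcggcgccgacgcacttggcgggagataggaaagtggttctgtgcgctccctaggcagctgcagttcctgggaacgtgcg
Kif11 (GRCm38.p6 chr19:37376132-37376431, plus strand): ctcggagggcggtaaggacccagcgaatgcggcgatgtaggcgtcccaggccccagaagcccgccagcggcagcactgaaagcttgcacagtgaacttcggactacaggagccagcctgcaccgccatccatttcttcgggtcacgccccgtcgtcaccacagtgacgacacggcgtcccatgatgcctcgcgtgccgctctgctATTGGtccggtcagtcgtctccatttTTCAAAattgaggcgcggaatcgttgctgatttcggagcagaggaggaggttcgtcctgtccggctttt
Bub1b (GRCm38.p6 chr2:118597961-118598260, plus strand): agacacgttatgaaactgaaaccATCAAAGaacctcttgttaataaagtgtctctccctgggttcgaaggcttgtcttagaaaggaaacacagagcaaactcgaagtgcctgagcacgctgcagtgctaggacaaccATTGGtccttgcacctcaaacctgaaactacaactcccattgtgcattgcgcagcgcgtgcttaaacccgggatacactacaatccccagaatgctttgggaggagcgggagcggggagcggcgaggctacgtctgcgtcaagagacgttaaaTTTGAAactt
Mcm6 (GRCm38.p6 chr1:128359656-128359955, minus strand): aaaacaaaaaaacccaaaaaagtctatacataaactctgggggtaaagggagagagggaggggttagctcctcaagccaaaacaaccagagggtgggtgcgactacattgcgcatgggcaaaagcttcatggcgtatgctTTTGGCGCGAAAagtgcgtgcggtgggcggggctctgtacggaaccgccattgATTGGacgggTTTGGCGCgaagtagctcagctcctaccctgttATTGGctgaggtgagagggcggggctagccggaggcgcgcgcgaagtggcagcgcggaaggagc
Cdk6 (GRCm38.p6 chr5:3343643-3343942, plus strand): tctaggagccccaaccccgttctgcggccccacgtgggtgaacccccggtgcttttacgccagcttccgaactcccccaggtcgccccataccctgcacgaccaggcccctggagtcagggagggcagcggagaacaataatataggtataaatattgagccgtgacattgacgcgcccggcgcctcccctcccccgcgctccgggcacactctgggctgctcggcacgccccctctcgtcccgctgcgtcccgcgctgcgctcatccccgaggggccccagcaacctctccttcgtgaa
Cdkn1b (GRCm38.p6 chr6:134920151-134920450, plus strand): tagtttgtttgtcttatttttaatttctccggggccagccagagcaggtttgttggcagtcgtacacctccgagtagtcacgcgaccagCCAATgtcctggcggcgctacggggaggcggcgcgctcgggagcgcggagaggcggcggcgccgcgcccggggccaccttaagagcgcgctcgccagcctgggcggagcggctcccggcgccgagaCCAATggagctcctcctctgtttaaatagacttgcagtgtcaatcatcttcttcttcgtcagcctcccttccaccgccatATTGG
Kif11 and Bub1b each hold a CHR and a CCAAT box, and Bub1b also holds a Tcf/Lef match. Mcm6 holds 3 E2F matches, of which a pair overlap in the first run of capitals, and 2 CCAAT boxes. Cdkn1b holds 3 CCAAT boxes. Mybl2 and Cdk6 hold none of these exact letters in the window, and other forms of the sites were not searched. Promoters were found for 41 of the 50 members, 46 windows in all, among 32851 windows of the same length. E2F letters stood in 28.3% of members' windows and 2.26% of all windows, in 7 of the 12 windows of licensing and fork genes and in 0 of the 10 of mitosis genes. CHR letters stood in 32.6% of members' windows and 17.9% of all, in 1 of the 12 licensing windows and in 7 of the 10 mitosis windows. CCAAT boxes stood in 67.4% against 37.4%, and Tcf/Lef letters in 8.7% against 9.33%. These matches describe the letters and not bound sites.

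Genes that license and open replication origins were the largest role group, and most of them passed as higher with Wnt3a in Tcf3+/+ cells. Of its 13 members, 4 rose and 0 fell in Tcf3-/- cells, and 9 rose and 0 fell in Tcf3+/+ cells by the limma test. That is 30.8% and 69.2% higher, against 13.3% and 18.9% of all genes. The 0% lower in each genotype stood against 14.7% and 22.6%. The 4 that did not pass in Tcf3+/+ cells were Mcm10 (0.22), Cdt1 (0.16), Pcna (-0.03) and Cdc6 (-0.17). At an unadjusted p below 0.05, 1 was lower in Tcf3-/- cells and 0 in Tcf3+/+ cells. The knockout raised 5 and lowered 0 of the 13 in control medium and raised 2 and lowered 0 with Wnt3a, and 0 were lower at an unadjusted p below 0.05 in either medium. Its rises were 38.5% in control medium and 15.4% with Wnt3a, against 19.9% and 13.2% of all genes. Falls were 0% in each, against 22.3% and 14.7%. All 6 subunits of the Mcm2 to Mcm7 helicase, which unwinds DNA at the fork, rose in Tcf3+/+ cells, by 0.21 (Mcm3) to 0.48 (Mcm6) on the log2 scale. All 6 stayed positive under both other scalings, though Mcm2 (0.11, adjusted p = 0.212) and Mcm3 (0.10, adjusted p = 0.121) did not pass with quantile normalization run again. Mcm6 read 13.12, 13.16 and 13.18 on the Wnt3a arrays and 12.92, 12.87 and 12.90 on the control-medium arrays of Tcf3-/- cells, against 13.15, 13.13 and 13.22 with Wnt3a and 12.67, 12.80 and 12.59 in control medium in Tcf3+/+ cells. Its groups did not overlap between media in either genotype. The rise was 1.20-fold in Tcf3-/- cells (0.26 ± 0.06 SE, adjusted p = 0.0117) and 1.40-fold in Tcf3+/+ cells (0.48 ± 0.06, adjusted p = 0.000169). Mcm4 rose by 0.22 in Tcf3-/- and 0.44 in Tcf3+/+ cells, and Mcm7 by 0.17 in Tcf3-/- and 0.26 in Tcf3+/+ cells. Mcm2, Mcm3 and Mcm5 had log2 differences of 0.04, 0.00 and 0.12 in Tcf3-/- cells, where none passed the test, and rose by 0.23, 0.21 and 0.26 in Tcf3+/+ cells. The interaction passed for none of the 6 subunits (-0.22 to -0.09, adjusted p 0.133 to 0.556), so a difference between genotypes was not detected on these probe sets. With an intensity trend the interaction of Mcm3 passed (-0.21, adjusted p = 0.0335), as did that of 1 of its 5 probe sets (-0.42, adjusted p = 0.0362 over probe sets). In control medium the knockout raised Mcm3 by 0.23 (adjusted p = 0.00377) and Mcm6 by 0.21 (adjusted p = 0.0176), and the Mcm6 call was lost in 2 of the 12 fits that leave out 1 array (up to 0.0904). The Mcm4 and Mcm7 calls in Tcf3-/- cells were lost without the third control-medium array of those cells (adjusted p = 0.0721 and 0.117). Mcm2 was lost in Tcf3+/+ cells without the first control-medium array (adjusted p = 0.11).

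Orc1, the largest subunit of the complex that marks origins, read 11.47, 11.52 and 11.55 with Wnt3a and 11.51, 11.31 and 11.33 in control medium in Tcf3-/- cells, against 11.31, 11.22 and 11.28 with Wnt3a and 10.86, 10.94 and 10.85 in control medium in Tcf3+/+ cells. The 3 Tcf3+/+ arrays in control medium were the lowest of the 12, without overlap. Orc1 was 1.41-fold higher in the knockout in control medium (0.50 ± 0.07 SE, adjusted p = 8.27e-05) and 1.19-fold higher with Wnt3a (0.25 ± 0.07, adjusted p = 0.0163). The second of these was lost without the second Wnt3a array of Tcf3+/+ cells (adjusted p = 0.0642). With Wnt3a the change in Tcf3-/- cells was 0.13 (95% interval -0.01 to 0.28). Wnt3a raised Orc1 in Tcf3+/+ cells (0.38 ± 0.07, adjusted p = 0.000862). This rests on the brighter of its 2 probe sets. The other differed by -0.28 in Tcf3-/- and -0.23 in Tcf3+/+ cells and was not called in either. With the mean of both, the Wnt3a change in Tcf3+/+ cells was 0.08 and did not pass (adjusted p = 0.414).

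Mcm10, which helps start the fork, read 11.86, 11.79 and 11.69 with Wnt3a and 11.74, 11.65 and 11.72 in control medium in Tcf3-/- cells, and 11.45, 11.57 and 11.57 with Wnt3a and 11.18, 11.50 and 11.26 in control medium in Tcf3+/+ cells. Every Tcf3-/- array lay above every Tcf3+/+ array. The knockout raised it by 0.39 ± 0.08 (SE) in control medium (adjusted p = 0.00239) and 0.25 ± 0.08 with Wnt3a (adjusted p = 0.0422). The call with Wnt3a was lost in 8 of the 12 fits that leave out 1 array, the highest adjusted p being 0.136 without the first Wnt3a array of Tcf3+/+ cells. Gmnn, the inhibitor of the licensing factor Cdt1, rose in the knockout in control medium by 0.21 (adjusted p = 0.024) and with Wnt3a in Tcf3+/+ cells by 0.22 (adjusted p = 0.0199). Both comparisons use the Tcf3+/+ arrays in control medium, and neither call held without the first of these arrays (adjusted p = 0.0984 and 0.0767). Orc6 rose with Wnt3a by 0.20 in Tcf3-/- and 0.18 in Tcf3+/+ cells, near the threshold (adjusted p = 0.0386 and 0.0425), and each was lost when single arrays were left out (up to 0.133 and 0.15). Cdc6, Cdt1 and the clamp Pcna, which work beside them, passed in no pairwise comparison on their brightest probe sets. For Cdt1, the dimmer of 2 probe sets rose with Wnt3a in Tcf3+/+ cells by 0.33 and in the knockout in control medium by 0.24 (adjusted p = 0.00243 and 0.0153 over probe sets). Cdt1 also passed with Wnt3a in Tcf3+/+ cells with the mean of its probe sets (0.33, adjusted p = 0.0011), with median centring (0.23, adjusted p = 0.0329) and with an intensity trend in the variance (adjusted p = 0.041). Cdc6 passed as lower with Wnt3a once quantile normalization was run again, at -0.28 in Tcf3-/- and -0.30 in Tcf3+/+ cells (adjusted p = 0.018 and 0.00994).

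Called mitosis genes also rose with Wnt3a. Of 11, 3 rose and 0 fell in Tcf3-/- cells and 7 rose and 0 fell in Tcf3+/+ cells by the limma test, and 0 were lower at an unadjusted p below 0.05 in either genotype. That is 27.3% and 63.6% higher, against 13.3% and 18.9% of all genes. The 0% lower stood against 14.7% and 22.6%. The knockout raised 3 and lowered 1 in control medium and raised 1 and lowered 1 with Wnt3a. In control medium that is 27.3% and 9.09%, against 19.9% and 22.3% of all genes. With Wnt3a it is 9.09% each way, below the 13.2% and 14.7% of all genes. Bub1b, a kinase-like protein of the spindle checkpoint, read 12.26, 12.27 and 12.28 with Wnt3a and 12.09, 12.07 and 12.03 in control medium in Tcf3-/- cells, against 12.032, 12.002 and 12.065 with Wnt3a and 11.50, 11.66 and 11.52 in control medium in Tcf3+/+ cells. The Tcf3-/- arrays with Wnt3a were the highest and the Tcf3+/+ arrays in control medium the lowest, each apart from the rest. It was 1.42-fold higher in the knockout in control medium (0.50 ± 0.06 SE, adjusted p = 3.02e-05) and 1.18-fold higher with Wnt3a (0.24 ± 0.06, adjusted p = 0.0106). Wnt3a raised it 1.15-fold in Tcf3-/- cells (0.21 ± 0.06, adjusted p = 0.022, lost at 0.0826 without the third control-medium array) and 1.39-fold in Tcf3+/+ cells (0.47 ± 0.06, adjusted p = 0.000113).

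Kif11, the motor that pushes spindle poles apart, read 10.95, 10.98 and 11.03 with Wnt3a and 11.02, 11.01 and 10.87 in control medium in Tcf3-/- cells, against 10.96, 11.08 and 10.99 with Wnt3a and 10.47, 10.67 and 10.58 in control medium in Tcf3+/+ cells. Only the Tcf3+/+ arrays in control medium stood apart, below the other 9. With Wnt3a the change in Tcf3-/- cells was 0.02 (95% interval -0.13 to 0.18), while Kif11 rose 1.35-fold in Tcf3+/+ cells (0.43 ± 0.07 SE, adjusted p = 0.000599). The knockout raised it by 0.39 in control medium (adjusted p = 0.000801), and with Wnt3a the difference was -0.02 (adjusted p = 0.851). The interaction was -0.41 ± 0.10 (adjusted p = 0.0428), and 10 of the 12 fits that leave out 1 array lose it, with an adjusted p of up to 0.104. Kif23, a motor of the midzone, rose in the knockout in control medium by 0.37 (adjusted p = 0.00257) and with Wnt3a in Tcf3+/+ cells by 0.29 (adjusted p = 0.0139, but 0.0555 without the third control-medium array of Tcf3+/+ cells).

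The other mitosis genes differed by 0.21 or less in the knockout comparisons. Cdc20, the activator of the anaphase-promoting complex, was lower in the knockout. It read 13.57, 13.58 and 13.53 with Wnt3a and 13.35, 13.30 and 13.43 in control medium in Tcf3-/- cells, and 13.71, 13.71 and 13.75 with Wnt3a and 13.56, 13.62 and 13.52 in control medium in Tcf3+/+ cells. In each medium the 3 Tcf3-/- arrays were below the 3 Tcf3+/+ arrays. The knockout effect was -0.21 ± 0.06 (SE) in control medium (adjusted p = 0.0105) and -0.17 ± 0.06 with Wnt3a (adjusted p = 0.0467), a call that 10 of 12 fits without 1 array lose (up to 0.121). Wnt3a raised Cdc20 by 0.20 in Tcf3-/- cells (adjusted p = 0.0216) and 0.16 in Tcf3+/+ cells (adjusted p = 0.0415), where single arrays left out gave adjusted p up to 0.0733 and 0.148. Plk1, Aurkb and Cenpa rose with Wnt3a in Tcf3+/+ cells by 0.16, 0.22 and 0.25, and Mad2l1 in Tcf3-/- cells by 0.21. Each of these 4 calls was lost without at least 1 array, with adjusted p up to 0.125, 0.0774, 0.136 and 0.101. Aurka, Bub1 and Birc5 passed in no pairwise comparison.

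**Figure D2:**
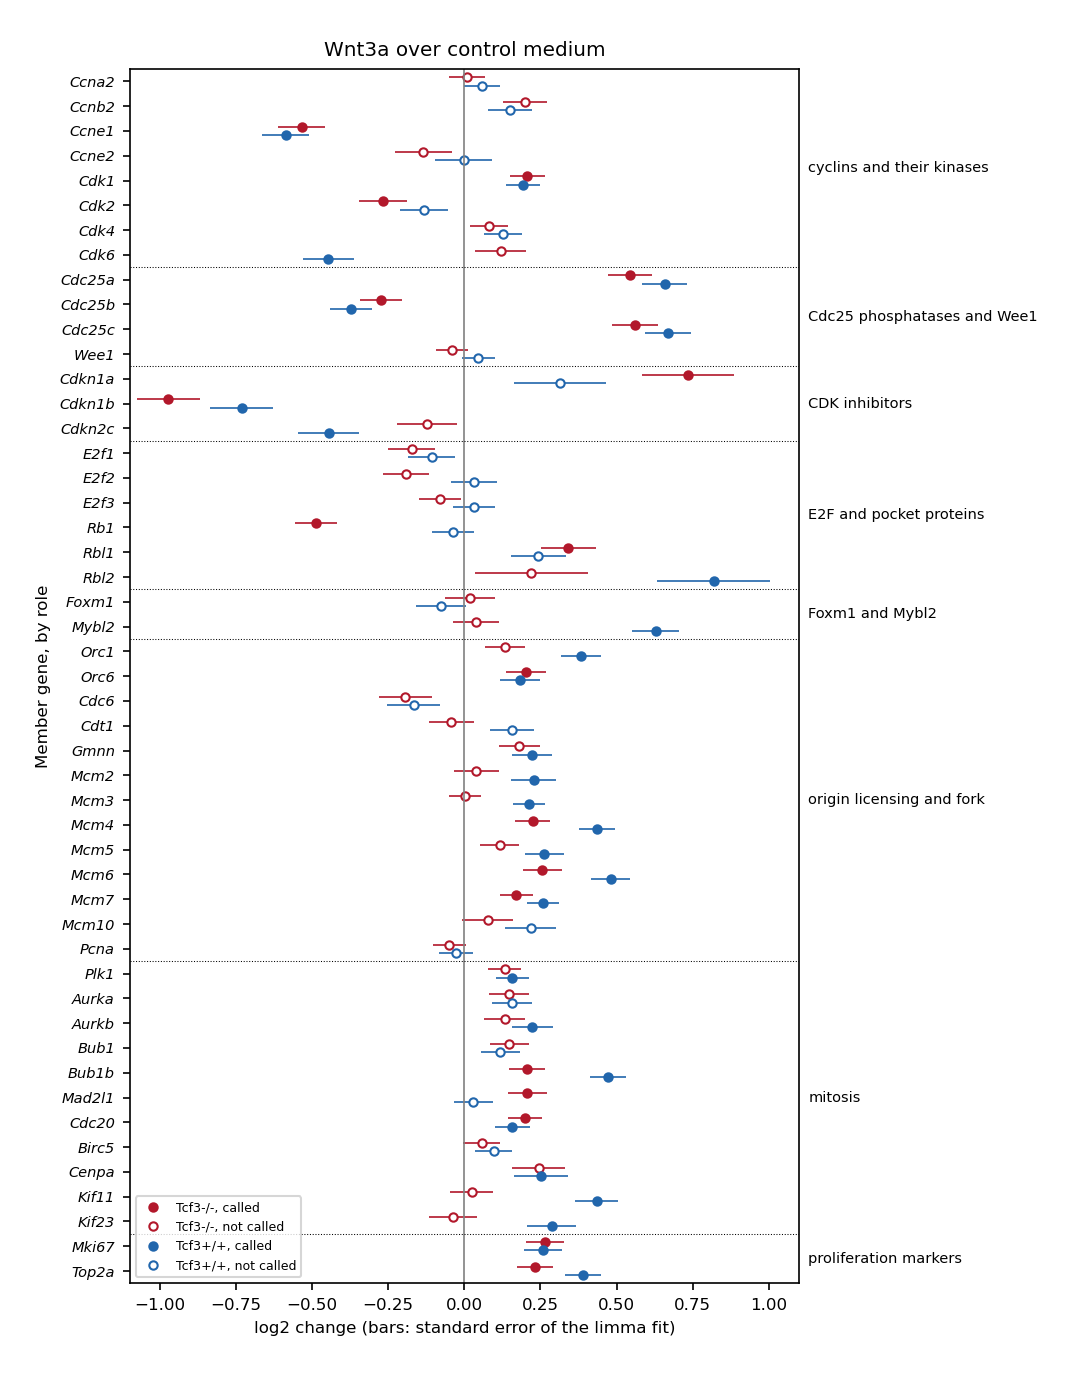
Log2 change with Wnt3a over control medium for each member, in Tcf3-/- cells (red) and Tcf3+/+ cells (blue); bars are the SE of the limma fit and filled points are called. In Tcf3-/- cells 14 points are filled to the right of 0 and 5 to the left, and in Tcf3+/+ cells 23 and 5.

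Both proliferation markers rose with Wnt3a in both genotypes. Mki67, the Ki-67 antigen of cycling cells, read 11.80, 11.85 and 11.85 with Wnt3a and 11.65, 11.59 and 11.46 in control medium in Tcf3-/- cells, against 12.02, 11.95 and 11.90 with Wnt3a and 11.74, 11.70 and 11.67 in control medium in Tcf3+/+ cells. The media did not overlap within a genotype, and the rise was 1.20-fold in Tcf3-/- cells (0.27 ± 0.06 SE, adjusted p = 0.00885) and 1.20-fold in Tcf3+/+ cells (0.26 ± 0.06, adjusted p = 0.00632). With quantile normalization run again neither passed, at 0.17 in Tcf3-/- cells (adjusted p = 0.0528) and 0.13 in Tcf3+/+ cells (adjusted p = 0.0928). Top2a, which untangles DNA in mitosis, rose by 0.23 in Tcf3-/- cells (adjusted p = 0.0146, but 0.0563 without the third control-medium array) and by 0.39 in Tcf3+/+ cells (adjusted p = 0.000451). It was also 0.22 higher in the knockout in control medium (adjusted p = 0.0114, but 0.064 without the third Tcf3+/+ array in control medium).

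Of the Cdc25 phosphatases, which remove the inhibitory phosphate that Wee1 puts on CDKs, Cdc25a and Cdc25c rose with Wnt3a and Cdc25b fell. Cdc25a, active at entry into S phase, read 11.16, 11.13 and 11.05 with Wnt3a and 10.70, 10.50 and 10.50 in control medium in Tcf3-/- cells, and 11.32, 11.26 and 11.29 with Wnt3a against 10.52, 10.71 and 10.66 in control medium in Tcf3+/+ cells. All 6 Wnt3a arrays lay above all 6 control-medium arrays. Wnt3a raised it 1.46-fold in Tcf3-/- cells (0.54 ± 0.07 SE, adjusted p = 0.000442) and 1.58-fold in Tcf3+/+ cells (0.66 ± 0.07, adjusted p = 5.9e-05). The dimmer probe set of Cdc25a differed by 0.11 in Tcf3-/- and 0.09 in Tcf3+/+ cells and was not called in either.

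Cdc25c, active at entry into mitosis, read 9.28, 9.46 and 9.53 with Wnt3a and 8.93, 8.84 and 8.81 in control medium in Tcf3-/- cells, and 9.09, 9.13 and 9.18 with Wnt3a against 8.47, 8.55 and 8.38 in control medium in Tcf3+/+ cells. The 4 groups formed steps with no overlap, the knockout above wild type in each medium and Wnt3a above control medium in each genotype. The rise with Wnt3a was 1.48-fold in Tcf3-/- cells (0.56 ± 0.07 SE, adjusted p = 0.000429) and 1.59-fold in Tcf3+/+ cells (0.67 ± 0.07, adjusted p = 6.14e-05). The knockout raised it by 0.40 ± 0.07 in control medium (adjusted p = 0.00106) and 0.29 ± 0.07 with Wnt3a (adjusted p = 0.0134, but 0.0515 without the third Wnt3a array of Tcf3-/- cells).

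Cdc25b read 7.97, 7.94 and 7.88 with Wnt3a and 8.16, 8.21 and 8.24 in control medium in Tcf3-/- cells, and 7.87, 7.86 and 7.66 with Wnt3a against 8.26, 8.11 and 8.14 in control medium in Tcf3+/+ cells. All 6 Wnt3a arrays were below all 6 control-medium arrays. It fell by 0.27 on the log2 scale in Tcf3-/- cells (adjusted p = 0.0137, but 0.0563 without the third control-medium array) and by 0.37 in Tcf3+/+ cells (adjusted p = 0.00154). Wee1, the kinase that opposes the phosphatases, was lower in the knockout by 0.28 with Wnt3a (adjusted p = 0.00219) and by 0.20 in control medium (adjusted p = 0.0101), with no overlap between genotypes in either medium, and did not pass with Wnt3a in either genotype. These results rest on the brighter of its 2 probe sets. The other rose with Wnt3a by 0.39 in Tcf3-/- and 0.72 in Tcf3+/+ cells (adjusted p = 0.00388 and 3.95e-05 over probe sets) and was not called in the knockout comparisons. With the mean of both probe sets, Wee1 rose with Wnt3a by 0.18 in Tcf3-/- and 0.38 in Tcf3+/+ cells (adjusted p = 0.0446 and 0.000425), and the knockout effect in control medium was -0.05 (adjusted p = 0.515).

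Among the 8 cyclins and CDKs tested, the knockout lowered 2 and raised 0 with Wnt3a, with 0 higher at an unadjusted p below 0.05 in the limma fit, and lowered 1 and raised 1 in control medium. Wnt3a lowered 2 and raised 1 in each genotype, and Cdk6 had the largest change. For the knockout, 25% fell and 0% rose with Wnt3a, against 14.7% and 13.2% of all genes. In control medium 12.5% moved each way, below the 22.3% and 19.9% of all genes. For Wnt3a, 25% fell and 12.5% rose in each genotype. Of all genes, 14.7% fell and 13.3% rose in Tcf3-/- cells, and 22.6% and 18.9% in Tcf3+/+ cells. Cdk6, the D-cyclin partner in G1, read 8.78, 8.81 and 8.95 with Wnt3a and 8.78, 8.61 and 8.80 in control medium in Tcf3-/- cells, against 9.32, 9.39 and 9.56 with Wnt3a and 9.90, 9.78 and 9.94 in control medium in Tcf3+/+ cells. All 6 Tcf3-/- arrays lay below all 6 Tcf3+/+ arrays, and within Tcf3+/+ cells the Wnt3a arrays lay below the control-medium arrays. The knockout was 2.21-fold lower in control medium (-1.14 ± 0.08 SE, adjusted p = 1.11e-06) and 1.49-fold lower with Wnt3a (-0.58 ± 0.08, adjusted p = 0.000436). With Wnt3a the change in Tcf3-/- cells was 0.12 (95% interval -0.06 to 0.30), and Cdk6 fell 1.36-fold in Tcf3+/+ cells (-0.45 ± 0.08, adjusted p = 0.0015). The interaction was 0.57 ± 0.12 (adjusted p = 0.0267), and 6 of the 12 fits without 1 array lose it, with an adjusted p of up to 0.0795 without the third control-medium array of Tcf3+/+ cells.

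Ccne1, a G1 partner of Cdk2, read 12.24, 12.21 and 12.12 with Wnt3a and 12.78, 12.55 and 12.85 in control medium in Tcf3-/- cells, and 12.24, 12.34 and 12.30 with Wnt3a against 12.83, 12.92 and 12.90 in control medium in Tcf3+/+ cells. All 6 Wnt3a arrays lay below all 6 control-medium arrays. The fall was 1.45-fold in Tcf3-/- cells (-0.53 ± 0.08 SE, adjusted p = 0.00063) and 1.50-fold in Tcf3+/+ cells (-0.59 ± 0.08, adjusted p = 0.000162). It rests on the brighter probe set: the other differed by -0.05 in Tcf3-/- cells, which did not pass, and rose by 0.32 in Tcf3+/+ cells (adjusted p = 0.0165 over probe sets). Ccne2, the related cyclin, read 8.97, 8.98 and 8.98 in Tcf3-/- cells and 9.45, 9.27 and 9.08 in Tcf3+/+ cells with Wnt3a, without overlap. That change of -0.29 (adjusted p = 0.0382) was lost in 6 of 12 fits, up to 0.147 without the first Wnt3a array of Tcf3+/+ cells.

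Cdk2 read 11.03, 11.27 and 11.33 with Wnt3a and 11.46, 11.52 and 11.46 in control medium in Tcf3-/- cells, and 11.08, 11.07 and 11.11 with Wnt3a and 11.12, 11.31 and 11.23 in control medium in Tcf3+/+ cells. The highest 3 arrays were those of the knockout in control medium. It was 0.26 higher in the knockout in control medium (adjusted p = 0.0199) and fell by 0.27 with Wnt3a in Tcf3-/- cells (adjusted p = 0.0272), and the calls held in 9 and 8 of the 12 fits that leave out 1 array (adjusted p up to 0.0804 without the first control-medium array of Tcf3+/+ cells and 0.0822 without the first Wnt3a array of Tcf3-/- cells). Cdk1, the mitotic kinase, rose with Wnt3a by 0.21 in Tcf3-/- cells (adjusted p = 0.0201) and 0.19 in Tcf3+/+ cells (adjusted p = 0.0188), and these calls reached 0.0799 and 0.0728 with an array left out. Its partners Ccna2 and Ccnb2, and Cdk4, passed in no pairwise comparison.

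The 3 CDK inhibitors differed from each other. Cdkn1b (p27), which blocks Cdk2 and holds cells in G1, read 7.54, 7.94 and 7.77 with Wnt3a and 8.79, 8.81 and 8.58 in control medium in Tcf3-/- cells, and 8.30, 8.11 and 8.12 with Wnt3a against 8.87, 9.02 and 8.84 in control medium in Tcf3+/+ cells. All 6 Wnt3a arrays were below all 6 control-medium arrays, and the knockout arrays were the lowest with Wnt3a. It fell 1.96-fold in Tcf3-/- cells (-0.97 ± 0.10 SE, adjusted p = 0.000148) and 1.66-fold in Tcf3+/+ cells (-0.73 ± 0.10, adjusted p = 0.000274). With Wnt3a it was 0.42 lower in the knockout (adjusted p = 0.0103), and in control medium the difference was -0.18 (95% interval -0.41 to 0.04). A second, much dimmer probe set of Cdkn1b rose with Wnt3a in Tcf3+/+ cells by 0.80 (adjusted p = 0.00838 over probe sets), so the difference in the mean of both probe sets was 0.03 there.

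Cdkn1a (p21), a p53 target, read 10.10, 10.14 and 10.51 with Wnt3a and 9.49, 9.52 and 9.55 in control medium in Tcf3-/- cells, and 10.31, 10.54 and 10.73 with Wnt3a and 10.50, 9.91 and 10.24 in control medium in Tcf3+/+ cells. The knockout arrays in control medium were the lowest 3 of the 12 and lay close together. The knockout was 1.62-fold lower in control medium (-0.70 ± 0.15 SE, adjusted p = 0.00272), while with Wnt3a the difference was -0.28 (95% interval -0.61 to 0.05) and the groups overlapped. Wnt3a raised it 1.66-fold in Tcf3-/- cells (0.73 ± 0.15, adjusted p = 0.00461), while the difference of 0.31 in Tcf3+/+ cells did not pass (adjusted p = 0.117). In Tcf3+/+ cells the other probe set was called higher, at 0.42. The brightest passed there without the first control-medium array (0.45, adjusted p = 0.0372). The interaction of 0.42 ± 0.21 did not pass (adjusted p = 0.284), so the Wnt3a effects were not shown to differ.

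Cdkn2c (p18), an inhibitor of Cdk4 and Cdk6, read 6.82, 6.58 and 6.58 with Wnt3a and 6.63, 6.94 and 6.78 in control medium in Tcf3-/- cells, and 6.59, 6.61 and 6.65 with Wnt3a against 7.22, 6.91 and 7.04 in control medium in Tcf3+/+ cells. Tcf3+/+ arrays in control medium were highest, with 1 knockout array in control medium among them. It fell with Wnt3a in Tcf3+/+ cells (-0.45 ± 0.10 SE, adjusted p = 0.00408). In control medium the knockout was lower by 0.28 with overlapping arrays (adjusted p = 0.0416), a call that 7 of 12 fits without 1 array lose, up to 0.165.

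Among E2F factors and pocket proteins, the knockout raised some members and lowered others. E2f2, an activator of S-phase genes, read 8.30, 8.24 and 8.24 with Wnt3a and 8.31, 8.51 and 8.54 in control medium in Tcf3-/- cells, against 7.90, 7.91 and 8.10 with Wnt3a and 7.96, 7.91 and 7.94 in control medium in Tcf3+/+ cells. All Tcf3-/- arrays were above all Tcf3+/+ arrays. The knockout was 1.23-fold higher with Wnt3a (0.30 ± 0.08 SE, adjusted p = 0.012, but 0.0504 without the second Wnt3a array of Tcf3+/+ cells) and 1.43-fold higher in control medium (0.52 ± 0.08, adjusted p = 0.000162).

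E2f3, another activator, was lower in the knockout. It read 9.28, 9.31 and 9.14 with Wnt3a and 9.36, 9.31 and 9.30 in control medium in Tcf3-/- cells, against 9.84, 9.74 and 9.64 with Wnt3a and 9.64, 9.75 and 9.73 in control medium in Tcf3+/+ cells. The genotypes did not overlap. The knockout was 1.41-fold lower with Wnt3a (-0.50 ± 0.07 SE, adjusted p = 0.00034) and 1.31-fold lower in control medium (-0.39 ± 0.07, adjusted p = 0.000771), though the dimmer of its 2 probe sets was not called in either medium (-0.10 with Wnt3a and -0.07 in control medium). E2f1 rose by 0.24 in the knockout in control medium (adjusted p = 0.0254, but 0.115 without the third knockout array). None of the 3 E2F genes passed with Wnt3a in either genotype on its brightest probe set with all arrays. The other probe set of E2f2 was called higher in Tcf3+/+ cells (0.43), as was the mean of both (0.23, adjusted p = 0.0476). Without the first control-medium array of Tcf3-/- cells, E2f2 passed as lower there (-0.26, adjusted p = 0.027).

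Rb1, the retinoblastoma protein, read 8.75, 8.89 and 8.89 with Wnt3a and 9.43, 9.30 and 9.26 in control medium in Tcf3-/- cells, and 9.16, 9.15 and 9.23 with Wnt3a and 9.26, 9.26 and 9.13 in control medium in Tcf3+/+ cells. Only the 3 knockout arrays with Wnt3a stood apart, below the other 9. Wnt3a lowered Rb1 1.40-fold in Tcf3-/- cells (-0.49 ± 0.07 SE, adjusted p = 0.00058), and the change in Tcf3+/+ cells was -0.04 (95% interval -0.19 to 0.11). The knockout was 0.34 lower with Wnt3a (adjusted p = 0.00369). The interaction was -0.45 ± 0.10 (adjusted p = 0.0291), and 6 of the 12 fits without 1 array lose it, up to 0.0893 without the third control-medium array of Tcf3+/+ cells. It was also lost with the replicate block (adjusted p = 0.0563). The mean of all its probe sets, which takes in one below the filter, lost it too (-0.20, adjusted p = 0.321). That mean also lost the knockout effect with Wnt3a (-0.13, adjusted p = 0.237).

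Rbl2 (p130), the pocket protein of resting cells, read 6.63, 6.74 and 7.03 with Wnt3a and 6.67, 6.56 and 6.50 in control medium in Tcf3-/- cells, and 6.13, 6.31 and 6.86 with Wnt3a and 5.40, 5.96 and 5.48 in control medium in Tcf3+/+ cells. The Tcf3+/+ arrays in control medium were the lowest, 2 of them under the filter level of 5.56, and Rbl2 had the widest spread of all members. It was 1.95-fold higher in the knockout in control medium (0.96 ± 0.18 SE, adjusted p = 0.00122) and rose 1.76-fold with Wnt3a in Tcf3+/+ cells (0.82 ± 0.18, adjusted p = 0.00442). Its interaction was the largest in size among the members, at -0.60 ± 0.26, and did not pass (adjusted p = 0.21). Rbl1 (p107) read 8.80, 8.71 and 8.88 with Wnt3a against 8.61, 8.31 and 8.45 in control medium in Tcf3-/- cells, without overlap. It rose there 1.27-fold (adjusted p = 0.0165, but 0.0609 without the second control-medium array), and the change of 0.24 in Tcf3+/+ cells did not pass (adjusted p = 0.0503). In Tcf3+/+ cells it did pass with the mean of all probe sets (0.32, adjusted p = 0.00298). Quantile normalization run again (0.25, adjusted p = 0.0301) and median centring (0.32, adjusted p = 0.0209) also called it.

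Mybl2 and Foxm1 are transcription factors that drive genes of the G2 phase and mitosis. In control medium the knockout raised Mybl2 and lowered Foxm1. Mybl2 read 11.66, 11.60 and 11.66 with Wnt3a and 11.49, 11.62 and 11.69 in control medium in Tcf3-/- cells, and 11.55, 11.66 and 11.80 with Wnt3a and 11.00, 11.13 and 10.99 in control medium in Tcf3+/+ cells. As for Kif11, the Tcf3+/+ arrays in control medium lay below the other 9. The knockout was 1.47-fold higher in control medium (0.56 ± 0.08 SE, adjusted p = 0.000104), and with Wnt3a the difference was -0.03 (95% interval -0.20 to 0.14). With Wnt3a the change in Tcf3-/- cells was 0.04 (95% interval -0.13 to 0.20), and Mybl2 rose 1.55-fold in Tcf3+/+ cells (0.63 ± 0.08, adjusted p = 0.000103). The interaction was -0.59 ± 0.11 (adjusted p = 0.0164). Of the 12 fits that leave out 1 array, only that without the third control-medium array of Tcf3+/+ cells lost it (adjusted p = 0.0553). It was also lost with the mean of its probe sets (-0.57, adjusted p = 0.0724).

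Foxm1 read 8.46, 8.66 and 8.63 with Wnt3a and 8.64, 8.49 and 8.55 in control medium in Tcf3-/- cells, against 8.92, 9.02 and 8.83 with Wnt3a and 9.13, 8.93 and 8.94 in control medium in Tcf3+/+ cells. The genotypes did not overlap. It was 1.27-fold lower in the knockout with Wnt3a (-0.34 ± 0.08 SE, adjusted p = 0.00935) and 1.35-fold lower in control medium (-0.44 ± 0.08, adjusted p = 0.00108). Of its 3 probe sets, 1 was called with Wnt3a and 2 in control medium, all lower. Wnt3a did not change it past the threshold in either genotype.

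**Figure D3:**
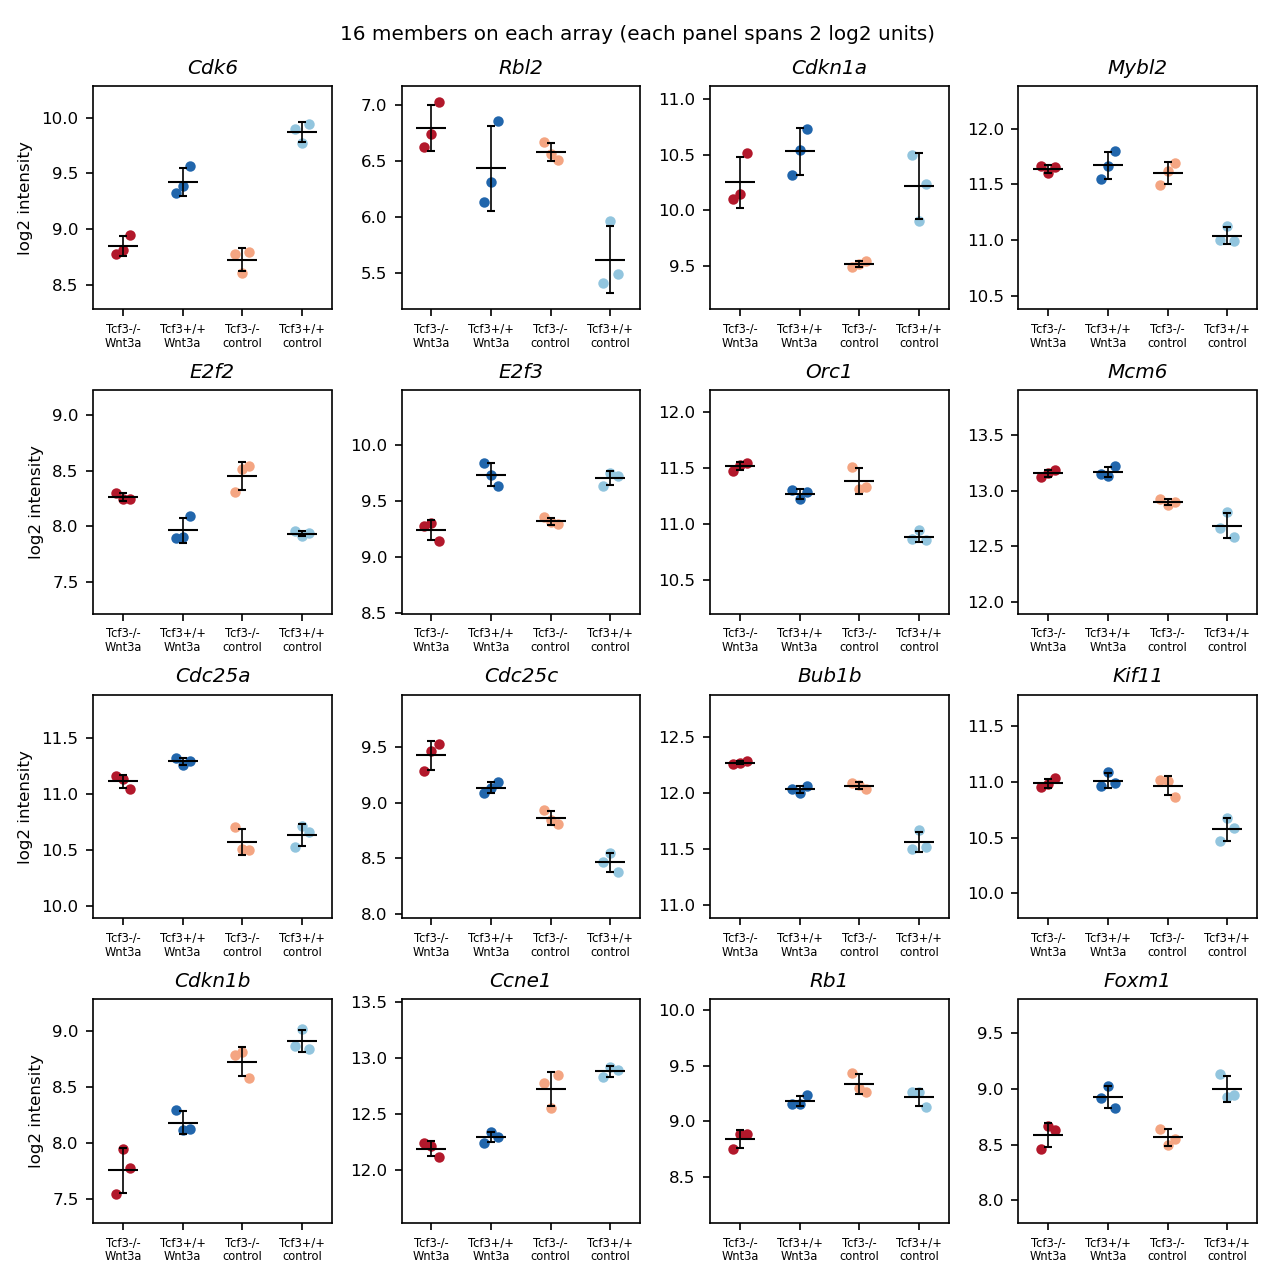
Log2 intensity of 16 members on each array, by group (3 points per group, with the mean and SD); every panel spans 2 log2 units. Mybl2 and Kif11 are apart on the Tcf3+/+ arrays in control medium, Rb1 on the Tcf3-/- arrays with Wnt3a, and Cdk6 between genotypes.

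**Figure D4:**
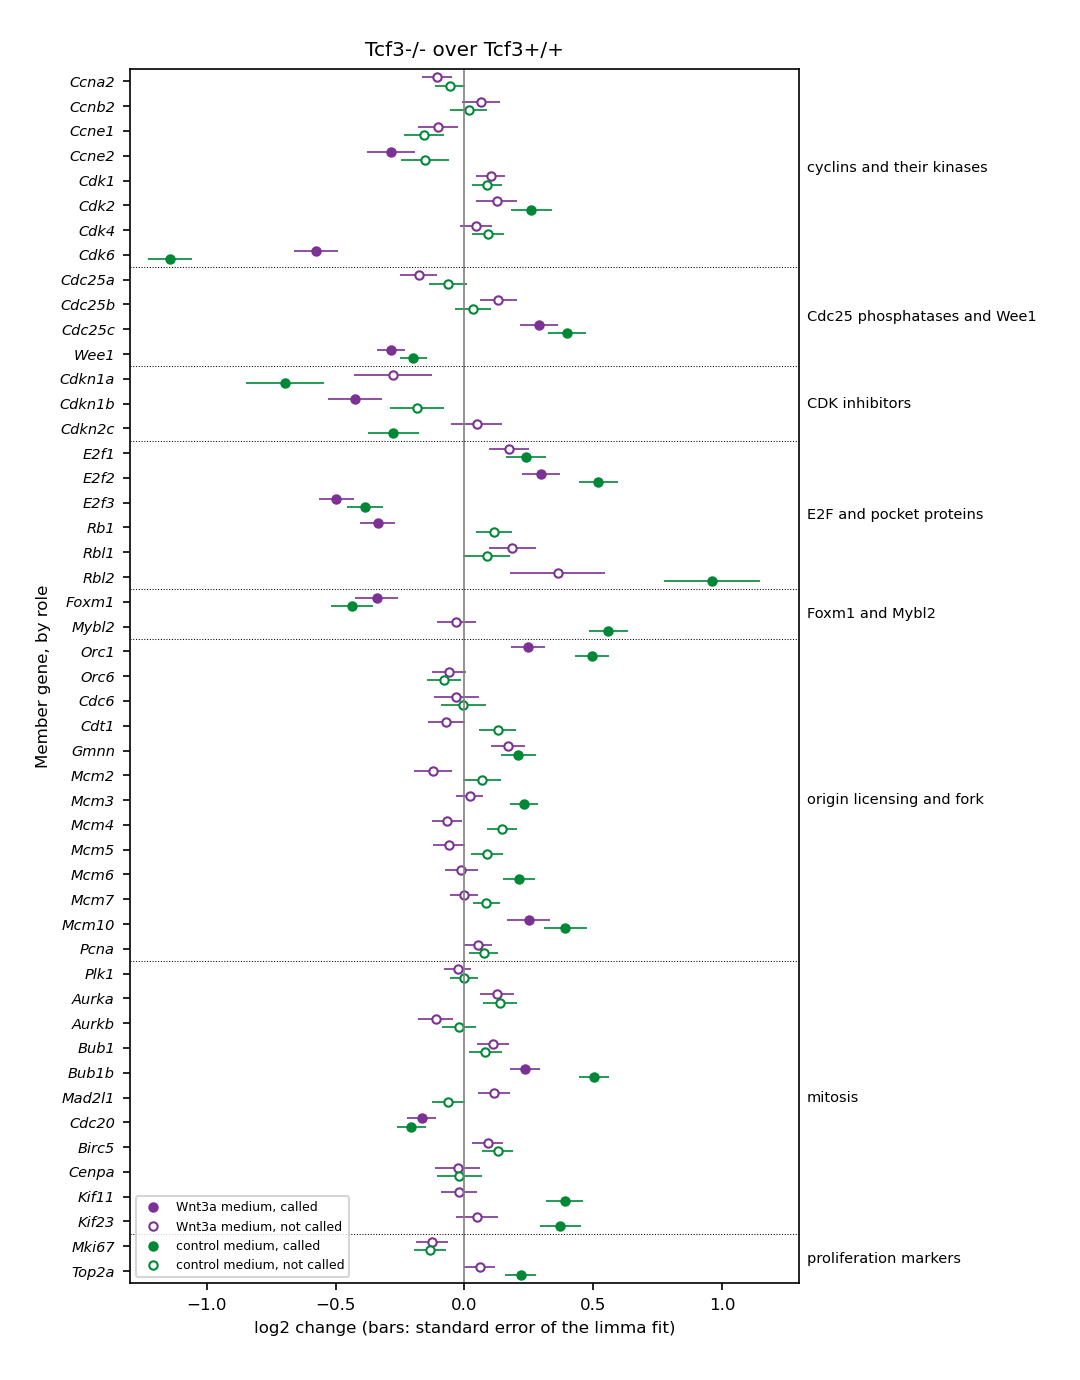
Log2 change of Tcf3-/- over Tcf3+/+ cells for each member, in Wnt3a medium (purple) and control medium (green); bars are the SE of the limma fit and filled points are called. In Wnt3a medium 5 members are called higher and 8 lower, and in control medium 15 and 7.

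The calls of the 2 Wnt3a effects, which share no arrays, overlapped in part. Of the 49 members, 11 rose in both genotypes, 3 in Tcf3-/- cells alone and 12 in Tcf3+/+ cells alone, while 3 fell in both, 2 in Tcf3-/- cells alone and 2 in Tcf3+/+ cells alone. The shares of members that rose were 22.4%, 6.12% and 24.5%, against 8.65%, 4.67% and 10.3% of all genes tested. The shares that fell were 6.12%, 4.08% and 4.08%, against 9.52%, 5.19% and 13.1% of all genes. The interaction passed for 2 of the 12 that rose in Tcf3+/+ cells alone, Mybl2 and Kif11, so for the other 10 a difference between genotypes was not shown. Among the 3 that rose in Tcf3-/- cells alone, Rbl1 and Cdkn1a also passed in Tcf3+/+ cells under alternatives. For the knockout effect, 5 members were higher and 5 lower in both media, and 10 were called higher and 2 lower in control medium alone, with 3 lower in Wnt3a medium alone. The shares of members called in both media were 10.2% higher and 10.2% lower, against 9.51% and 11.8% of all genes. In control medium alone they were 20.4% and 4.08%, against 10.4% and 10.5%, and in Wnt3a medium alone 0% and 6.12%, against 3.73% and 2.94%. Cdc25c, Bub1b and Cdc20 were called in all 4 pairwise comparisons. The 9 members called in none were Ccna2, Ccnb2, Cdk4, Cdc6, Cdt1, Pcna, Aurka, Bub1 and Birc5. Of these, 7 were called in a pairwise comparison under at least 1 alternative, all but Ccna2 and Pcna. With median centring, Ccnb2, Aurka and Bub1 were higher with Wnt3a in both genotypes and Cdk4 in Tcf3+/+ cells, and Birc5 was higher in the knockout in control medium with an intensity trend (0.13, adjusted p = 0.0409). A dimmer probe set of Ccna2 rose with Wnt3a in Tcf3-/- cells by 0.25 (adjusted p = 0.0138 over probe sets). Of 3 probe sets of Cdk4, 1 rose in each genotype, a different one each time. Their intervals leave room for small changes: with Wnt3a in Tcf3+/+ cells, that of Pcna ran from -0.15 to 0.09 and that of Aurka from 0.01 to 0.30.

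Probe sets of a member were not always called alike. Of the 33 members with at least 2 tested probe sets, 3 had probe sets called in opposite directions with Wnt3a in Tcf3-/- cells (Bub1b, Mcm3 and Top2a) and 3 in Tcf3+/+ cells (Ccne1, Cdkn1b and Bub1b). In Bub1b and Mcm3 the probe set called lower was by far the dimmest of the gene. In Cdkn1b the probe set called higher lay near or below the filter level and passed it only through Wnt3a arrays. No member had probe sets called in opposite directions in the 2 knockout comparisons. Over all 96 tested probe sets of members, Wnt3a raised 29 (30.2%) and lowered 9 (9.38%) in Tcf3-/- cells, against 14.9% and 16% of all 28483 tested probe sets. It raised 50 (52.1%) and lowered 8 (8.33%) in Tcf3+/+ cells, against 20.8% and 21.7% of all. The knockout raised 8 (8.33%) and lowered 11 (11.5%) with Wnt3a, against 10.8% and 13.2%, and raised 30 (31.2%) and lowered 12 (12.5%) in control medium, against 18% and 18.2%. The interaction was called higher for 3 and lower for 5 of them, against 1.58% and 2% of all.

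Sizes differed as well. The other probe set of Cdc25c rose by 1.59 in Tcf3-/- and 1.57 in Tcf3+/+ cells, and 1 of the 3 probe sets of Kif11 rose by 0.80 in Tcf3-/- and 1.35 in Tcf3+/+ cells. For Cdk6, all 3 probe sets were lower in the knockout in both media. The dimmest of them fell with Wnt3a by 1.32 in Tcf3-/- and 1.91 in Tcf3+/+ cells, while the brightest differed by 0.12 in Tcf3-/- and -0.45 in Tcf3+/+ cells. The interaction of Cdk6 was called for all 3 probe sets (0.57 to 0.68). With Wnt3a its dimmest probe set read 5.601, 5.575 and 5.845 in Tcf3-/- cells, near the filter level. In Tcf3+/+ cells with Wnt3a it read 6.169, 5.862 and 5.951. Whether this low signal bears on the interaction of that probe set was not tested. The interaction of Kif11 was called for 2 of 3 (-0.55 to -0.39), and that of Mybl2 for 1 of 2 (-0.59 and -0.56). Rb1 has a single tested probe set.

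**Figure D5:**
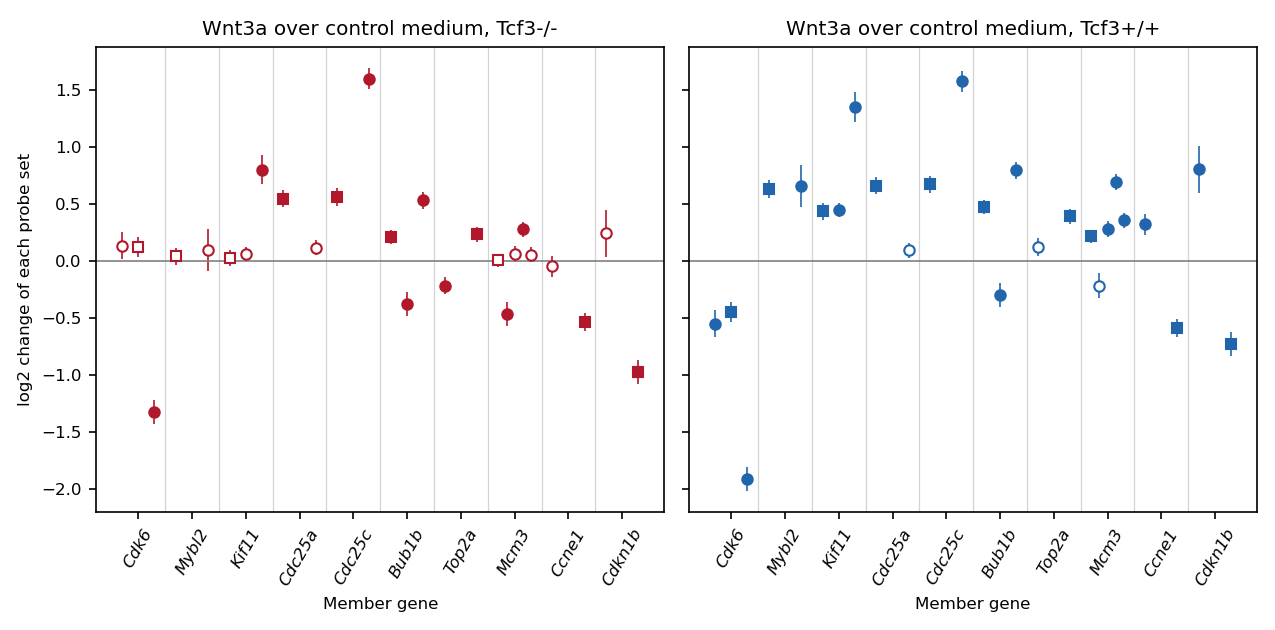
Log2 change with Wnt3a for every tested probe set of 10 members, in Tcf3-/- cells (left) and Tcf3+/+ cells (right); squares are the brightest probe set of a gene, bars are the SE and filled symbols are called. Probe sets of Ccne1 and Cdkn1b lie on both sides of 0 in Tcf3+/+ cells, and the 3 of Cdk6 differ in size but are all below 0 there.

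Further genes of the same processes were followed in lists of related genes. Of 52 tested mitosis genes outside the members, Wnt3a raised 25 and lowered 0 in Tcf3-/- cells, and raised 35 and lowered 0 in Tcf3+/+ cells by the limma test. The rises were 48.1% in Tcf3-/- and 67.3% in Tcf3+/+ cells, against 13.3% and 18.9% of all genes. The falls were 0% in each, against 14.7% and 22.6%. At an unadjusted p below 0.05, 1 was lower in Tcf3-/- and 0 in Tcf3+/+ cells. The median change was 0.20 in Tcf3-/- and 0.34 in Tcf3+/+ cells, against -0.01 and -0.02 over all genes. The largest rises were those of Knl1, a kinetochore scaffold, by 0.74 in Tcf3-/- and 1.17 in Tcf3+/+ cells, and Cdca2, by 0.64 in Tcf3-/- and 1.12 in Tcf3+/+ cells. Kif14, a motor of cytokinesis, rose by 0.84 in Tcf3+/+ cells (adjusted p = 0.00167). Nusap1, at 0.22 in Tcf3-/- cells, did not pass (adjusted p = 0.0549). The knockout raised 4 and lowered 3 of these genes with Wnt3a, and raised 21 and lowered 2 in control medium, where Kif14 was 1.03 and Kif20b 0.69 higher. With Wnt3a these counts are 7.69% and 5.77%, against 13.2% and 14.7% of all genes. In control medium they are 40.4% and 3.85%, against 19.9% and 22.3%. The interaction was called lower for Kif14 (-0.93, adjusted p = 0.0431) and Kif20b (-0.45, adjusted p = 0.041).

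Of 47 other replication and nucleotide genes, Wnt3a raised 15 and lowered 2 in Tcf3-/- cells and raised 23 and lowered 1 in Tcf3+/+ cells with medians of 0.17 in Tcf3-/- and 0.20 in Tcf3+/+ cells. These counts are 31.9% and 4.26% in Tcf3-/- cells, against 13.3% and 14.7% of all genes. For Tcf3+/+ cells they are 48.9% and 2.13%, against 18.9% and 22.6%. Rfc4, a subunit of the clamp loader, rose by 0.56 in Tcf3-/- and 0.75 in Tcf3+/+ cells, and Orc3, an origin subunit, by 0.73 in Tcf3-/- cells. Chaf1b, a chromatin assembly subunit, rose by 0.59 in Tcf3+/+ cells, while Tyms, at -0.26, did not pass (adjusted p = 0.0633). The knockout raised 8 and lowered 1 with Wnt3a and raised 19 and lowered 2 in control medium. Its shares were 17% and 2.13% with Wnt3a, against 13.2% and 14.7% of all genes. In control medium they were 40.4% and 4.26%, against 19.9% and 22.3%. Pola1, the catalytic subunit of DNA polymerase alpha, was 0.45 higher with Wnt3a and 1.11 higher in control medium (adjusted p = 0.000421 and 3.49e-07), and its interaction was -0.66 (adjusted p = 0.00545).

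Of 15 genes of the anaphase-promoting complex and its regulators, Wnt3a raised 4 and lowered 0 in Tcf3-/- cells and raised 7 and lowered 1 in Tcf3+/+ cells by the limma test, with 3 lower in Tcf3-/- cells at an unadjusted p below 0.05. Called shares were 26.7% and 0% in Tcf3-/- cells, against 13.3% and 14.7% of all genes. For Tcf3+/+ cells they were 46.7% and 6.67%, against 18.9% and 22.6%. The knockout raised 1 and lowered 1 with Wnt3a and raised 3 and lowered 1 in control medium. Those are 6.67% each with Wnt3a, below the 13.2% and 14.7% of all genes. In control medium 20% rose, near the 19.9% of all genes, and 6.67% fell, against 22.3%. Anapc10 rose with Wnt3a by 0.27 in Tcf3-/- and 0.60 in Tcf3+/+ cells, and Anapc11 fell by 0.50 in Tcf3+/+ cells. Of 17 tested other cyclins, kinases and ubiquitin ligase (SCF) genes, Wnt3a raised 4 and lowered 1 in Tcf3-/- cells and raised 8 and lowered 2 in Tcf3+/+ cells. Such counts are 23.5% and 5.88% in Tcf3-/- cells, against 13.3% and 14.7% of all genes. For Tcf3+/+ cells they are 47.1% and 11.8%, against 18.9% and 22.6%. Skp2, which targets p27 for degradation, rose by 0.58 in Tcf3+/+ cells (adjusted p = 0.000429), was 0.46 lower in the knockout with Wnt3a (adjusted p = 0.00281) and had an interaction of -0.59 (adjusted p = 0.0287). The knockout raised 5 and lowered 1 of these genes with Wnt3a and raised 7 and lowered 2 in control medium, where the checkpoint kinases Chek2, Atr and Chek1 were 0.59, 0.51 and 0.43 higher. Its shares were 29.4% and 5.88% with Wnt3a, against 13.2% and 14.7% of all genes. In control medium they were 41.2% and 11.8%, against 19.9% and 22.3%.

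Of 13 other E2F, DP and DREAM complex genes, Wnt3a raised 0 and lowered 5 in Tcf3-/- cells and raised 1 and lowered 6 in Tcf3+/+ cells by the limma test, with 2 higher in Tcf3-/- cells at an unadjusted p below 0.05. Called shares were 0% and 38.5% in Tcf3-/- cells, against 13.3% and 14.7% of all genes. For Tcf3+/+ cells they were 7.69% and 46.2%, against 18.9% and 22.6%. In Tcf3-/- cells Mybl1 fell by 1.12, the repressor E2f4 by 0.88 and E2f5 by 0.87. In Tcf3+/+ cells they fell by 0.73, 0.70 and 0.77. The knockout raised 1 and lowered 4 with Wnt3a and raised 4 and lowered 3 in control medium, where the repressors E2f7 and E2f6 were 0.94 and 0.71 lower. Its shares were 7.69% and 30.8% with Wnt3a, against 13.2% and 14.7% of all genes. In control medium they were 30.8% and 23.1%, against 19.9% and 22.3%.

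Of 7 other CDK inhibitors and D-type cyclins, the knockout lowered 4 and raised 2 in each medium. That is 57.1% lower and 28.6% higher. Of all genes, 14.7% were lower and 13.2% higher with Wnt3a, and 22.3% lower and 19.9% higher in control medium. Cdkn1c (p57) was 5.25-fold lower with Wnt3a and 5.52-fold lower in control medium, and Cdkn2b (p15) was 3.47-fold lower with Wnt3a and 3.27-fold lower in control medium. Cdkn2a was 2.01-fold lower in control medium (adjusted p = 0.000344), and with Wnt3a the difference was 0.05 (adjusted p = 0.843). Ccnd2 rose 2.63-fold with Wnt3a in Tcf3+/+ cells, and its interaction was -1.84 (adjusted p = 0.00468). Of 22 tested p53 targets, Cdkn1a's companions in that response, the knockout raised 3 and lowered 8 with Wnt3a and raised 4 and lowered 10 in control medium, where Perp and Plk2 were 4.55-fold and 3.62-fold lower. Wnt3a raised 4 and lowered 3 of them in Tcf3-/- cells, and raised 3 and lowered 8 in Tcf3+/+ cells. These are 18.2% and 13.6% in Tcf3-/- cells, near the 13.3% and 14.7% of all genes, and 13.6% and 36.4% in Tcf3+/+ cells, against 18.9% and 22.6% of all genes. The knockout shares were 13.6% and 36.4% with Wnt3a, against 13.2% and 14.7% of all genes, and 18.2% and 45.5% in control medium, against 19.9% and 22.3%.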

How the data were processed

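Total RNA of 12 samples of mouse embryonic stem cells was labelled with biotin and hybridised to 1-colour Affymetrix arrays, 3 per group. The deposited table holds the authors' linear intensity values, 1 per probe set and array, for 45101 probe sets. RMA, which corrects background, quantile-normalizes and summarises probes, is named per the submitters' processing notes, with no version or settings given in the sources used here. The values ran from 9.26 to 35984, and array medians from 68.4 to 73.4.

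Values were taken as log2 with no pseudocount. Of the probe sets, 64 were controls, 34945 had 1 gene symbol in GEO's platform annotation, 932 had several and 9160 were not listed there. Each gene was read from its brightest probe set by mean over 12 arrays. It was tested if 3 or more arrays exceeded 5.56 log2, an intensity of 47.2, which is the 40th percentile of all values. The fit used limma 3.58.1 in R 4.3.3 on all 12 arrays as 4 groups, with 5 comparisons and Benjamini-Hochberg adjustment over 13811 genes at 0.05, and was tested on simulated data. No p was adjusted over the members alone.

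The members and gene lists were chosen with earlier results of these data known. Every member could be named. Array values are given for up to 6 called members with the largest rise and 6 with the largest fall in each pairwise comparison, and for the 6 largest interactions. From each other list, genes were named from the 3 that changed most among called genes and the 1 with the biggest difference among the rest. The alternatives tried were other scaling, filter, probe set and variance choices, fits on the compared arrays, the replicate block and leaving out each array. Samples with the same replicate number did not deviate together, with 18 correlations of -0.257 to 0.244, of which 4 exceeded 0.1, so the numbers were not taken to pair samples. The number of arrays limits the precision.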

Additional observations from a re-analysis of the deposited data

Results flagged for a closer look

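For 4 members the Wnt3a effect differed between the genotypes by the interaction test of the limma fit, given as the log2 effect in Tcf3-/- minus that in Tcf3+/+ cells. The interaction was 0.57 for Cdk6 (adjusted p = 0.0267), -0.45 for Rb1 (adjusted p = 0.0291), -0.59 for Mybl2 (adjusted p = 0.0164) and -0.41 for Kif11 (adjusted p = 0.0428). Of the 4 calls, 0 held in all 12 fits that leave out 1 array.

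A signal outside the measured genes also stood apart. The bacterial control transcript dap was 7.52 log2 units higher on the 6 Wnt3a arrays than on the 6 control-medium arrays. The other control transcripts read were higher there as well, by 1.71 (cre) to 4.81 (thr). The part of these differences in the Wnt3a comparisons was not tested.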

How the results depend on the processing

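Over the members, 86 results were called, and of 1716 recalculations of them under the alternatives 1495 kept the call, 218 lost it and 3 reversed it. Of 159 results not called, 33 were called under at least 1 alternative. Calls held in all 12 fits without 1 array for 7 of 13 members for the knockout effect with Wnt3a and 16 of 22 in control medium, for 8 of 19 for the Wnt3a effect in Tcf3-/- cells and 19 of 28 in Tcf3+/+ cells, and for 0 of 4 interactions. In these fits the knockout with Wnt3a had 2 to 6 members higher and 6 to 8 lower, and in control medium 11 to 15 higher and 6 to 7 lower. The Wnt3a effect had 6 to 15 higher and 3 to 5 lower in Tcf3-/- cells, and 14 to 24 higher and 5 lower in Tcf3+/+ cells. The interaction had 0 to 1 higher and 0 to 4 lower. The knockout count with Wnt3a was 2 higher without the second Wnt3a array of either genotype.

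With quantile normalization run again, Wnt3a raised 6 members in Tcf3-/- and 13 in Tcf3+/+ cells. With every probe set on its own, it raised 22 and lowered 9 in Tcf3-/- cells. With the mean of all probe sets of a gene, the knockout lowered 5 members with Wnt3a and the interaction was lower for 1. With an intensity trend in the variance the interaction was lower for 5. With the replicate block, which stands for numbers that did not pair the samples, it was lower for 1, and the other counts were 4 higher and 6 lower for the knockout with Wnt3a, 15 and 6 in control medium, 12 and 5 for Wnt3a in Tcf3-/- cells, and 21 and 5 in Tcf3+/+ cells. The fit on the compared arrays alone was not run for the interaction, which uses all groups.

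Directions reversed in 7 cases, all with the mean of all probe sets. For Wnt3a in Tcf3-/- cells the change became -0.36 for Cdk6, 0.18 for Wee1 and -0.0099 for Top2a. For Wnt3a in Tcf3+/+ cells it became 0.034 for Cdkn1b, -0.18 for Bub1 and -0.018 for Cenpa, and the knockout effect on Bub1 in control medium became -0.17. That mean takes in probe sets below the filter, such as those of Bub1, Cenpa and Top2a. In Tcf3+/+ cells that of Bub1 read 4.963, 5.046 and 5.059 with Wnt3a and 5.509, 5.509 and 5.464 in control medium. Why probe sets of a gene differ was not tested. Signal over background limits Rbl2, which lay near the filter level.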
